A study of Mus musculus with 27 samples.

Results

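Irradiation with 15 Gy was examined in the intestine of mice that had all received CBLB502, 24 h after treatment. The comparison used 6 of the 27 RNA-seq libraries of the study, chosen by their labels: 3 libraries of mice given CBLB502 and then 15 Gy, and 3 libraries of mice given CBLB502 with no irradiation. CBLB502 was injected intraperitoneally at 0.2 mg/kg, 0.5 h before the dose where mice were irradiated, and gamma rays from a cobalt source were delivered at 72 R/min. All mice were wild-type C57BL/6 males, 6 to 8 weeks old. A further 3 libraries of mice given 15 Gy without CBLB502 at 24 h, and 3 of untreated control mice, were used to set the same dose of radiation beside itself without the drug. The design text describes the control as given PBS, and lists 7 groups of 10 mice where the labels hold 9 groups of 3 libraries. Neither says whether a library is 1 mouse or a pool, so p-values measure the spread between libraries, which may in part be technical. The sources used here name neither the intestinal segment nor the hour of collection.

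CBLB502 is a shortened bacterial flagellin that binds Toll-like receptor 5, whose signal passes through Myd88 to NF-kB and turns on genes of mucosal defence. Flagellin inside a cell is sensed by Naip proteins, which assemble with Nlrc4 and activate Casp1. Gamma rays break DNA, and the transcription factor p53 then turns on genes of cell cycle arrest, repair and cell death. In the intestine the dividing cells of the crypt are the most sensitive to this, while the absorptive cells of the villus have left the cycle.

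The 6 libraries held 60.6 M to 86.5 M counts each, where M stands for 1e6, and all 27 held 57.4 M to 87.1 M. Replicates of a group differed far more than counting noise allows, with a biological coefficient of variation of 31% estimated over all 27 libraries. Enterocyte genes were abundant in every library. Vil1, an actin bundler of the brush border, stood at 2844 to 3269 CPM in 15 Gy + CBLB502 and 3503 to 4359 CPM with CBLB502 alone. CPM here are counts scaled to an equal effective library total, as defined with the processing. Genes encoded by mitochondria took 15.1% to 18.7% of counts in 15 Gy + CBLB502 and 9.67% to 24.6% with CBLB502 alone, where replicate 3 was the highest. That replicate also held the most summed T cell and haemoglobin transcripts, and the lists it moved most are given without it. A score of proximal small intestine genes ranged from 0.05 to 0.74 in 15 Gy + CBLB502 and from 0.42 to 1.05 with CBLB502 alone on a log2 scale, so these groups overlapped, and from -0.94 to 0.34 in 15 Gy and -0.56 to -0.25 in control, which lay wholly below CBLB502 alone. The library labelled 15 Gy replicate 2 correlated more closely with the 15 Gy + CBLB502 libraries (Pearson's r from 0.972 to 0.976 across genes) than with its own group (0.958 to 0.959), and the comparisons that use the 15 Gy group are given with and without it.

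At an adjusted p under 0.05 (edgeR's quasi-likelihood test, Benjamini-Hochberg over all genes), 1908 of the 11118 genes tested (17.2%) changed with 15 Gy under CBLB502, 997 higher (8.97%) and 911 lower (8.19%). Of these, 677 were past 2-fold, 342 higher and 335 lower. The median change was 0.82 among the higher genes and -0.78 among the lower ones on the log2 scale, against 0.02 over all genes tested. In 1837 of the 1908 (96.3%) the libraries of the groups did not overlap, which held for 35.4% of all genes tested. Leaving out 15 Gy + CBLB502 replicate 3 gave 1218 genes and leaving out CBLB502 replicate 3 gave 1268, the other single libraries leaving up to 1756. On the authors' FPKM scale, where the median of all genes lay at 0.13 with a pseudocount of 1, limma called 1304 genes higher and 356 lower, so that the higher share was 78.6% against 52.3% here.

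Genes of mucosal defence were among the steepest falls, and the lectin Mbl2 was among the steepest rises. Fut2 (chr7:45648591-45666394, minus strand, GRCm38), the fucosyltransferase that adds fucose to epithelial glycans, had 1.51, 0.839 and 1.38 CPM in 15 Gy + CBLB502, against 40.9, 71.8 and 26.8 CPM with CBLB502 alone. Every irradiated library lay more than an order of magnitude below every unirradiated one, and the difference was -5.23 ± 0.52 on the log2 scale (SE, n = 3 each, adjusted p = 2.96e-06). Duox2 (chr2:122279247-122298449, minus strand), an oxidase that releases hydrogen peroxide at the epithelial surface, had 1.32, 2.08 and 1.44 CPM in 15 Gy + CBLB502, against 145, 42.2 and 138 CPM with CBLB502 alone. The groups did not overlap, with a log2 fold change of -6.07 ± 1.17 (adjusted p = 0.00156). Its maturation factor Duoxa2, the adjacent gene on the opposite strand, moved with it at -6.06 ± 1.28 (adjusted p = 0.00292), and reads shared between the neighbours cannot be told apart where counting ignored strand.

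Reg3b (chr6:78370657-78373466, plus strand), a secreted C-type lectin of the antibacterial Reg3 family, was among the most abundant transcripts, with 3089, 3822 and 2658 CPM in 15 Gy + CBLB502 and 35694, 43646 and 27615 CPM with CBLB502 alone. Its near relative Reg3g (chr6:78466269-78468872, minus strand), which kills Gram-positive bacteria, had 1192, 2262 and 1487 CPM in 15 Gy + CBLB502 and 17221, 20256 and 16833 CPM with CBLB502 alone. All irradiated libraries lay below all unirradiated ones for both, at -3.48 ± 0.48 (adjusted p = 9.23e-05) and -3.46 ± 0.50 (adjusted p = 0.000141), with the share of reads the paralogs could exchange not known. Saa1, an acute-phase apolipoprotein, had 0.137, 0.378 and 0.140 CPM in 15 Gy + CBLB502, against 78.1, 14.8 and 60.4 CPM with CBLB502 alone, a log2 fold change of -7.85 ± 1.75 (adjusted p = 0.0043). Gml2 (chr15:74819071-74834871, plus strand) and its neighbour Gml, GPI-anchored proteins of the Ly6 family, fell by 4.95 and 4.77 on the log2 scale (adjusted p = 9.86e-05 and 0.000379), and Gml2 had 1.94, 1.88 and 0.752 CPM in 15 Gy + CBLB502 against 38.5, 52.8 and 49.7 CPM with CBLB502 alone. Both Gml genes were low in each irradiated library and high in each unirradiated one.

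**Figure D1:**
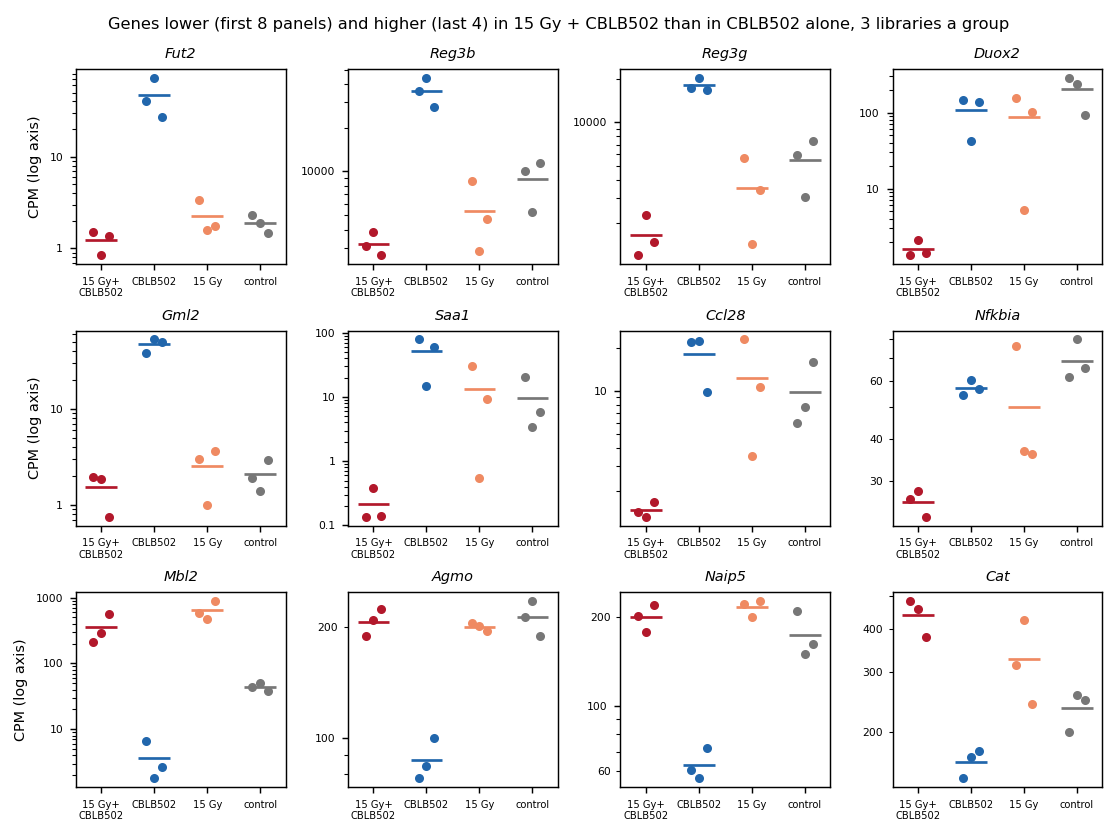
CPM on a log axis for 12 genes in 15 Gy + CBLB502, CBLB502 alone, 15 Gy and control; each dot is a library and each line a group mean (n = 3). Fut2 and Gml2 are high in the CBLB502-alone libraries and low in the other groups, while Agmo is lowest with CBLB502 alone.

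The other steep falls were in Epop (-6.42), the galactosyltransferase B3galt5 (-4.86), the Ly6 protein Ly6d (-4.49), the small GTPase Rasd1 (-4.14), the mucosal scavenger receptor Dmbt1 (-3.47) and the gut glutathione peroxidase Gpx2 (-3.45), with adjusted p between 4.17e-05 and 0.00468. The largest rise among the genes named by size was in Mbl2 (chr19:30232942-30239687, plus strand), a mannose-binding lectin of the complement system. It had 208, 293 and 571 CPM in 15 Gy + CBLB502, against 6.58, 1.81 and 2.64 CPM with CBLB502 alone, at 6.60 ± 0.73 on the log2 scale (adjusted p = 1.1e-05). No irradiated library came near an unirradiated one for this gene. Aqp8, a water channel, had 5.77, 11.4 and 12.4 CPM in 15 Gy + CBLB502 and was detected in 1 of the 3 libraries with CBLB502 alone, at 0.312 CPM (adjusted p = 0.00322). Rises that kept their call without any single library were those of the carboxylesterase Ces1g (4.09), the chemokine Ccl24 (3.81), the Bcl2-family protein Bok (3.50), the retinol dehydrogenase relative Rdh16f2 (3.11), the phosphate transporter Slc17a4 (2.80), the proline-synthesis enzyme Aldh18a1 (2.72), Nfil3 (2.68), the esterase Aadac (2.61), Plbd1 (2.58) and Denn2b (2.58). Ugt1a9, Cyp2c55 and Ces1d also rose (5.07, 2.93 and 2.38), but lost their calls in 3, 2 and 3 of the 6 fits that each left out 1 library, with adjusted p between 0.0142 and 0.0958.

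Of the 16 tested genes of antimicrobial and mucosal defence, 9 fell and none rose, with a list median of -1.88. The list's summed level was 11495 to 13346 CPM in 15 Gy + CBLB502 and 50265 to 75380 CPM with CBLB502 alone. With CBLB502 alone, most of that sum was Reg3b and Reg3g. Beside the 6 genes given above, the members that fell were Nos2, the inducible nitric oxide synthase (-6.30, adjusted p = 0.0108), Lcn2, which binds bacterial siderophores (-2.68, adjusted p = 0.0146), and the flagella-binding protein Lypd8 (-1.08, adjusted p = 0.0348), Nos2 and Lypd8 being named after their values were seen. Lcn2 lost its call whichever of 3 libraries was left out, with adjusted p from 0.0095 to 0.0653. In those 3 fits 7 members of the list fell, so that either Nos2 or Lypd8 lost its call too. Over all fits without 1 library, from 7 to 9 members fell. The immunoglobulin receptor Pigr stood at -0.02 and did not pass the test. In bulk tissue, fewer cells of a type and less RNA per cell cannot be told apart, here or in any list below. Over all genes tested 17.2% were called, and several lists below held smaller shares. Among them were Bcl2 and caspase (15.4%), Paneth cell (13.3%), proximal (12.5%) and MHC class II genes (11.1%). Lower still were stem and Wnt (7.69%), goblet cell (6.25%), exocrine pancreas (4.35%) and interferon-stimulated genes (3.23%).

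Among the 20 tested genes of flagellin sensing and NF-kB, 2 rose and 5 fell, with a median of -0.17. Naip5, the cytosolic flagellin sensor, had 201, 178 and 218 CPM in 15 Gy + CBLB502, against 60.8, 57 and 72.1 CPM with CBLB502 alone, a rise of 1.65 ± 0.24 (adjusted p = 0.000176). The groups lay well apart, though reads of near-identical Naip paralogs could be split between them. Casp1, the inflammatory caspase downstream, rose by 0.78 ± 0.17 (adjusted p = 0.00329). Nfkbia, the NF-kB inhibitor that NF-kB itself induces, had 26.5, 28 and 23.4 CPM in 15 Gy + CBLB502 and 54.5, 60.1 and 56.7 CPM with CBLB502 alone, at -1.14 ± 0.24 (adjusted p = 0.00276). Each irradiated library held about the same low level. Tnip1 fell by 0.84 (adjusted p = 0.00525), and Nfkb1 and Nlrc4 stood at -0.60 and -0.37 (adjusted p = 0.0287 and 0.0289). Nfkb1 lost its call whichever of 4 libraries was left out (adjusted p up to 0.144) and Nlrc4 whichever of 5 (up to 0.115). Without CBLB502 replicate 1, 5 members of the list fell, and without any other single library 2 or 3 did. Tlr5 itself was below the filter, with 13 counts in 15 Gy + CBLB502 and 0 with CBLB502 alone.

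The stretch before the start of Nfkbia is shown because that gene is the standard readout of NF-kB. It is the 120 bases before its start in RefSeq (GRCm38.p6, chr12:55492648-55492767, minus strand), with the match to a strict form of the NF-kB motif, searched on both strands and allowing any base at its middle position, in capitals.
Nfkbia: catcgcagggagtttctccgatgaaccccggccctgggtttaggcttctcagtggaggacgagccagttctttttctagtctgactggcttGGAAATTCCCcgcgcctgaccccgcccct
The motif was found in the 250 bases before the start of 0.337% of the 27025 RefSeq genes. It was in 1 of the 4 matched genes of the flagellin list that fell, which is Nfkbia, and in 1 of all 19 matched genes of that list.

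Of 12 tested chemokines and cytokines, 2 rose and 3 fell, with a list median of -0.14 that was positive on the FPKM scale. Ccl28, which draws IgA plasma cells to mucosa, had 1.42, 1.32 and 1.67 CPM in 15 Gy + CBLB502, against 22, 22.5 and 9.78 CPM with CBLB502 alone (-3.62 ± 0.61, adjusted p = 0.000579). Ccl20, the Ccr6 ligand that flagellin is known to induce in epithelium, had 0.387, 0.319 and 1.15 CPM in 15 Gy + CBLB502, against 3.86, 10.3 and 3.05 CPM with CBLB502 alone (-3.22 ± 0.62, adjusted p = 0.0016). Both were low in every irradiated library. Tnfsf10, the death ligand TRAIL, rose by 1.22 ± 0.24 (adjusted p = 0.00164), and Il15, which sustains intraepithelial lymphocytes, rose by 1.02 ± 0.26 (adjusted p = 0.0108), or 0.0564 without CBLB502 replicate 1 against 0.0152 at the lowest when another library was left out. Il33 stood at -0.69 (adjusted p = 0.0423) and lost its call whichever of 4 libraries was left out, with adjusted p from 0.0168 to 0.288.

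**Figure D2:**
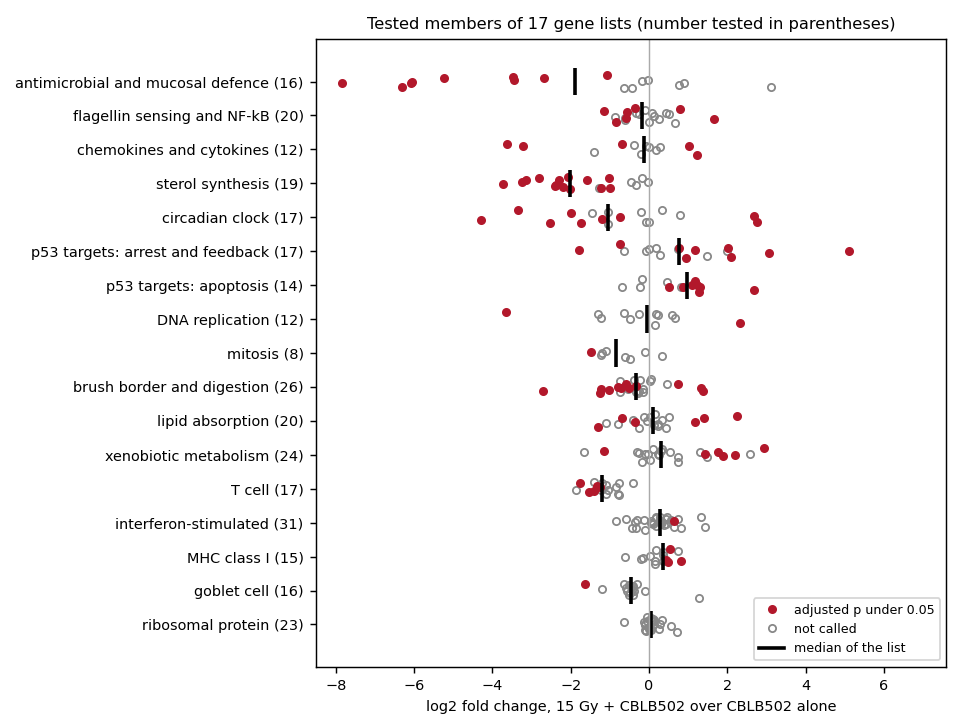
Log2 fold change of 15 Gy + CBLB502 over CBLB502 alone for the tested members of 17 gene lists; red points passed an adjusted p of 0.05, open grey points did not, and black bars are list medians (Phlda3 is left out). Defence and sterol synthesis medians lie at -1.88 and -2.02, and the p53 lists at 0.77 and 0.98; the small medians of chemokines and cytokines and of DNA replication are negative here and positive on the FPKM scale.

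Sterol synthesis was the list with the largest share of members called: 14 of its 19 tested genes fell and none rose, with a median of -2.02. Among those that fell were Hmgcs1, which acts early in the pathway, Mvk, Mvd, Idi1, Fdps and Fdft1 of its middle steps, Sqle, Lss, Cyp51, Msmo1 and Nsdhl, which make and trim the sterol ring, and the regulator Srebf2. Sqle, which epoxidises squalene, had 4.62, 5.26 and 5.39 CPM in 15 Gy + CBLB502, against 132, 50.6 and 20.5 CPM with CBLB502 alone (-3.74 ± 0.76, adjusted p = 0.00238). The irradiated libraries were close to each other, while the unirradiated ones spread widely. Cyp51 had 11, 13.2 and 17.1 CPM in 15 Gy + CBLB502, against 253, 99.3 and 36.7 CPM with CBLB502 alone (-3.24 ± 0.62, adjusted p = 0.00152). Msmo1, a sterol demethylation enzyme, had 46.7, 38.6 and 67.3 CPM in 15 Gy + CBLB502, against 290, 206 and 147 CPM with CBLB502 alone (-2.08 ± 0.32, adjusted p = 0.000285). The same order of unirradiated libraries, with replicate 1 the highest and replicate 3 the lowest, was seen in all 3 genes and in the list's sum, which was 709, 719 and 999 CPM in 15 Gy + CBLB502 and 2807, 1757 and 1057 CPM with CBLB502 alone. Between 8 and 16 members fell when 1 library was left out. The SREBP anchor Insig1 stood at -1.27 and missed the threshold (adjusted p = 0.0761). With 15 Gy and no CBLB502, 1 of the 19 fell, with a median of -0.49 (1 and -0.46 without 15 Gy replicate 2), and no member passed the test of the difference between the effects, with or without that library.

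Stretches before 4 of the sterol genes that fell are shown because these genes moved together. Each is the 120 bases before the RefSeq start (GRCm38.p6), printed 5′ to 3′ on the gene's strand, with CCAAT or its reverse complement ATTGG in capitals. They lie at chr13:119690231-119690350 (plus strand), chr5:114444149-114444268 (plus), chr8:122443423-122443542 (minus) and chrX:72918401-72918520 (plus).
Hmgcs1: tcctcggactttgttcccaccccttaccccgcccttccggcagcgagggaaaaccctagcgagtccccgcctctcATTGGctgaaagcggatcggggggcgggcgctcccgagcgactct
Mvk: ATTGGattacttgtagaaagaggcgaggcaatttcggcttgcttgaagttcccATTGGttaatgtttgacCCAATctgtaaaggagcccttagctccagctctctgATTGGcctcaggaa
Mvd: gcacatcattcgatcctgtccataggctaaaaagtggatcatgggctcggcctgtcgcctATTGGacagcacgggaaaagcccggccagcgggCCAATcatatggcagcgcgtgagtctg
Nsdhl: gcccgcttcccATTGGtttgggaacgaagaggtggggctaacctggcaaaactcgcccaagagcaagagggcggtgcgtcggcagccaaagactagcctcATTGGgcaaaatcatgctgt
CCAAT is the box bound by NF-Y. Within 250 bases before the start it was found, on either strand, in all 9 matched sterol genes that fell and in 34.5% of all 27025 genes, or 36.8% of the 7699 tested genes with a promoter in the table. It was also in all 5 matched clock genes that fell, in 2 of 7 matched defence genes that fell and in 0 of 4 of the flagellin list. Over the whole lists, called or not, it was in 11 of 12 matched sterol genes and 11 of 16 clock genes. In the defence and flagellin lists it was in 4 of 15 and 4 of 19. The sterol regulatory element TCACNCCAC was in 1.04% of all promoters and in 1 of the 9 sterol genes, Hmgcs1. A match is a description of these letters and not of binding.

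**Figure D3:**
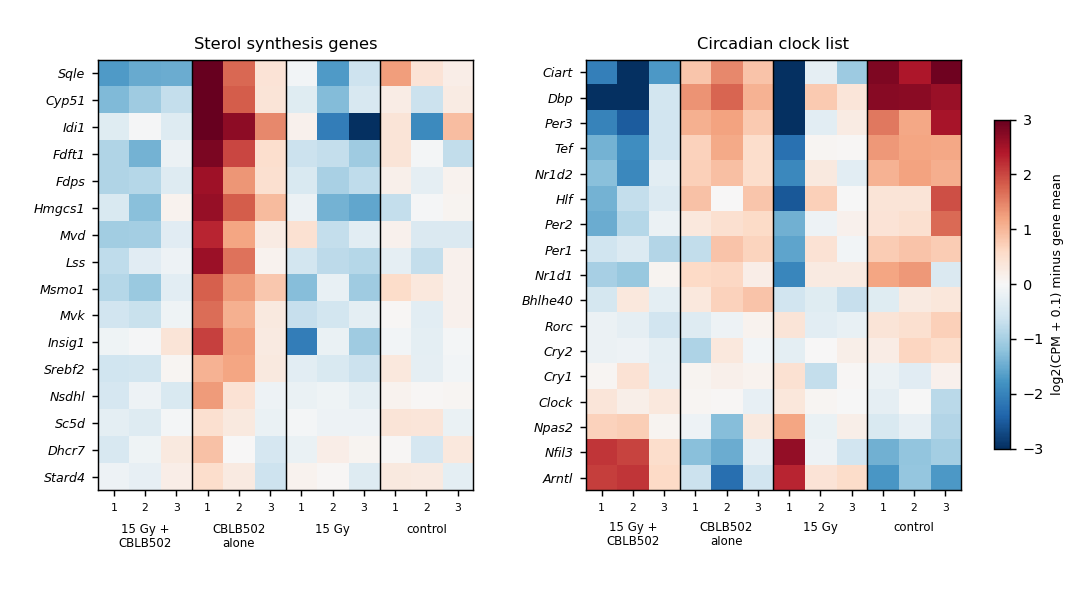
Heat map of log2(CPM + 0.1) minus each gene's mean over 12 libraries, for sterol synthesis and clock genes (rows) in 15 Gy + CBLB502, CBLB502 alone, 15 Gy and control (columns, 3 libraries each). Most sterol genes are highest in CBLB502 replicate 1 and low in the 15 Gy + CBLB502 libraries, and within the CBLB502 group replicate 3 lies nearest to those.

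Most tested targets of p53 in cell death rose. Of 14 tested targets in cell death, 9 rose and none fell, with a median of 0.98, and of 17 in arrest and feedback, 7 rose and 2 fell, with a median of 0.77. When 1 library was left out, from 6 to 8 of the cell death targets rose, and 6 or 7 of those in arrest and feedback. Ccng1, cyclin G1, had 99.4, 89 and 103 CPM in 15 Gy + CBLB502, against 21.8, 27 and 23.1 CPM with CBLB502 alone (2.02 ± 0.15, adjusted p = 8.07e-08). Its replicates differed little within either group. Phlda3 (chr1:135766119-135769136, plus strand), a p53-induced repressor of Akt, had 1.51, 1.94 and 3.14 CPM in 15 Gy + CBLB502, or 531 counts, and 0 counts in all 3 libraries with CBLB502 alone. Against the 3 counts over the group that a count of 0 allows, it was at least 140-fold higher (counting error only, adjusted p = 1.1e-05). Plk2, a stress-induced polo kinase, had 14.3, 12.5 and 17 CPM in 15 Gy + CBLB502, against 1.85, 1.06 and 2.34 CPM with CBLB502 alone (3.06 ± 0.30, adjusted p = 2.96e-06). The p53-induced nuclease Aen rose by 2.69, the death receptors Fas and Tnfrsf10b by 1.27 and 1.23, the pore-former Bax by 1.09 and Psrc1 by 5.12 on the log2 scale (adjusted p between 4.64e-05 and 0.000972). Bbc3, which encodes Puma, had 2.32, 3.33 and 2.93 CPM in 15 Gy + CBLB502 and 1.51, 1.29 and 0.977 CPM with CBLB502 alone, a rise of 1.18 (adjusted p = 0.0457). Without CBLB502 replicate 2, Bbc3 was not among the 6 cell death targets that rose.

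Other well known targets fell or did not pass the test. Cdkn1a, the p21 inhibitor of the cell cycle, had 254, 287 and 232 CPM in 15 Gy + CBLB502, against 350, 394 and 550 CPM with CBLB502 alone, at -0.74 ± 0.18 (adjusted p = 0.00827). All irradiated libraries lay below the unirradiated ones, and the adjusted p was 0.0615 without CBLB502 replicate 3, the highest of the 6 such fits, the lowest being 0.00418. The stress kinase Plk3 fell by 1.80 ± 0.34 (adjusted p = 0.00124). Mdm2, the ubiquitin ligase of p53, had 51.9, 55.2 and 55.5 CPM in 15 Gy + CBLB502 and 46.7, 49.2 and 65.5 CPM with CBLB502 alone, with overlapping groups and a difference of 0.01 ± 0.17 (adjusted p = 0.981). Among 8 tested p53 targets in repair and metabolism, 2 rose, with a median of 0.61: Tigar by 0.79 (adjusted p = 0.00636) and the damage sensor Xpc by 0.54 (adjusted p = 0.0404), which lost its call whichever of 5 libraries was left out, with adjusted p from 0.0308 to 0.147. Of 13 tested genes of the Bcl2 and caspase families outside those lists, Ripk3 fell by 1.02 and Xiap by 0.55 (adjusted p = 0.00401 and 0.00488), and the median was -0.23 here and positive on the FPKM scale.

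**Figure D4:**
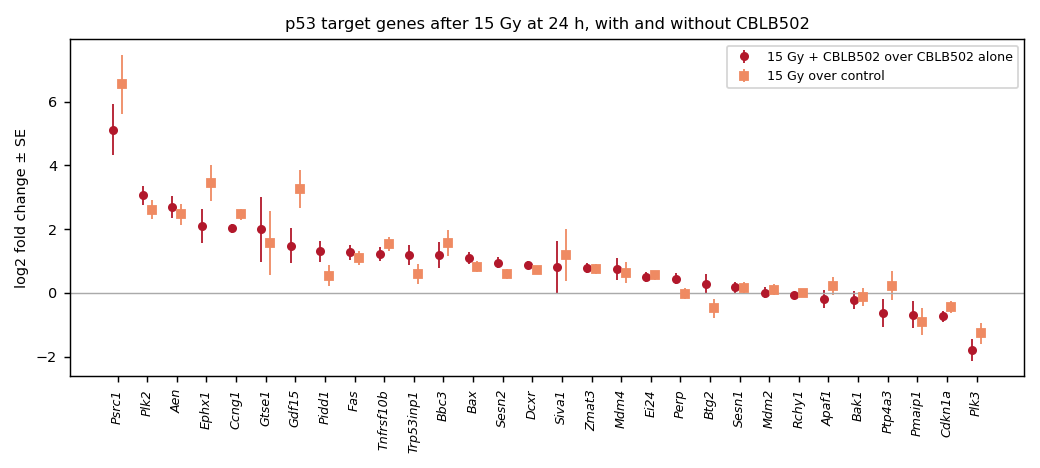
Log2 fold change ± SE of tested p53 targets for 15 Gy + CBLB502 over CBLB502 alone and for 15 Gy over control (n = 3 libraries a group; Phlda3 is left out). Ccng1 lies at 2.02 with CBLB502 and 2.46 without, Plk2 at 3.06 and 2.61, and Mdm2 near 0 in both. Without 15 Gy replicate 2, the values over control were 2.5, 2.77 and 0.14.

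Genes of dividing cells were low in both groups. Of those tested, 12.5% of mitosis and 16.7% of DNA replication genes were called, against 17.2% of all genes tested. Of 8 mitosis genes tested, Birc5, survivin, was the one that fell, with 2.39, 1.69 and 2.59 CPM in 15 Gy + CBLB502 against 6.09, 6.08 and 6.47 CPM with CBLB502 alone (-1.48 ± 0.40, adjusted p = 0.0145), and the list median was -0.85. Its adjusted p was 0.0672 without 15 Gy + CBLB502 replicate 2, and 0.0229 at the lowest. Mki67 had 1.91, 3.07 and 4.37 CPM in 15 Gy + CBLB502 and 10.7, 5.40 and 5.27 CPM with CBLB502 alone, which did not overlap, but missed the threshold (adjusted p = 0.179). Of 12 DNA replication genes, with a median of -0.05 that was positive on the FPKM scale, Ccne2, cyclin E2, rose and Rrm2, the small subunit of ribonucleotide reductase, fell. Ccne2 had 13.5, 15.4 and 14.3 CPM in 15 Gy + CBLB502, against 2.79, 2.57 and 3.28 CPM with CBLB502 alone (2.32 ± 0.38, adjusted p = 0.000399). The groups were tight and apart. Rrm2 stood at 30.3 CPM in CBLB502 replicate 2, without which its adjusted p was 0.0532, the highest of the 6 fits, against 0.00444 in all libraries and 0.00253 at the lowest.

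The stem cell marker Lgr5 was below the filter, with 42 counts in 15 Gy + CBLB502 and 24 with CBLB502 alone. Olfm4, another marker of crypt base cells, had 0.137, 0.555 and 0.892 CPM in 15 Gy + CBLB502 and 4.10, 0.867 and 0.623 CPM with CBLB502 alone (adjusted p = 0.363). Of 13 tested stem and Wnt genes, Sox9 was the one called, at -1.56 (adjusted p = 0.0304), with overlapping libraries and no call whichever of 3 libraries was left out (adjusted p from 0.00826 to 0.309), and the list median of -0.10 was positive on the FPKM scale. Of 15 genes of the regenerating or fetal-like epithelium, 2 rose and 4 fell, with a median of -0.29. The growth factor Ereg rose by 2.46 and the YAP target Ccn1 by 2.5, while the growth factor Areg fell by 1.22, Ly6a by 2.2 and Anxa2 by 0.81 (adjusted p between 0.000465 and 0.00664). Krt7 was at -0.79 (adjusted p = 0.0297) and lost its call whichever of 4 libraries was left out. Clu, the marker of revival stem cells, had 1.14, 1.04 and 1.82 CPM in 15 Gy + CBLB502 and 0.732, 0.609 and 1.62 CPM with CBLB502 alone, a difference of 0.44 ± 0.74 (adjusted p = 0.739).

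Absorptive genes moved in both directions. Of 26 tested genes of the brush border and digestion, 3 rose and 9 fell, with a median of -0.33. Lct, lactase, had 2988, 3393 and 3381 CPM in 15 Gy + CBLB502, against 1463, 818 and 1611 CPM with CBLB502 alone (1.33 ± 0.21, adjusted p = 0.000319). The fructose transporter Slc2a5 had 144, 155 and 277 CPM in 15 Gy + CBLB502, against 1409, 1779 and 588 CPM with CBLB502 alone (-2.71 ± 0.38, adjusted p = 0.000129). The groups did not overlap for either gene. The glucose transporter Slc5a1 fell by 1.02 and the maltase Mgam by 1.24, while the trehalase Treh rose by 0.75 (adjusted p between 0.000696 and 0.00547). Sucrase-isomaltase, Sis, had 1615, 2422 and 3133 CPM in 15 Gy + CBLB502 and 7878, 5762 and 3185 CPM with CBLB502 alone (-1.23 ± 0.33, adjusted p = 0.0153). It lost its call without replicate 1 of either group, at adjusted p from 0.00586 to 0.0768. Leaving out 1 library at a time gave from 3 to 9 genes of this list that fell, with 5 without CBLB502 replicate 3.

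In lipid absorption, 3 of 20 tested genes rose and 3 fell, with a median of 0.09. The fatty acid receptor Cd36 had 136, 192 and 178 CPM in 15 Gy + CBLB502, against 22.5, 49.5 and 35.3 CPM with CBLB502 alone (2.24 ± 0.33, adjusted p = 0.000175). Abcg5, a subunit of the transporter that returns sterols to the lumen, had 634, 500 and 438 CPM in 15 Gy + CBLB502, against 217, 154 and 224 CPM with CBLB502 alone (1.4 ± 0.19, adjusted p = 9.86e-05). All irradiated libraries were above all unirradiated ones in both. Its partner Abcg8 was at 1.18 (adjusted p = 0.0174) and lost its call without 15 Gy + CBLB502 replicate 1 or CBLB502 replicate 2, with adjusted p from 0.00971 to 0.147. The triglyceride enzyme Dgat2 fell by 1.3 and the acyl-CoA synthetase Acsl5 by 0.68 (adjusted p = 0.00652 and 0.0019), and Mogat2 by 0.36 (adjusted p = 0.0221, or 0.127 without 15 Gy + CBLB502 replicate 1, the other 5 fits reaching down to 0.0251). In fatty acid synthesis, 1 of 10 genes rose and 1 fell: the regulator Srebf1 rose by 1.22 (adjusted p = 0.00065), and Fasn stood at -1.2 (adjusted p = 0.0422), lost whichever of 5 libraries was left out. Of 16 genes of fat oxidation, 12.5% were called, against 17.2% of all genes tested. The carnitine carrier Slc25a20 rose by 0.74 and Acot2 by 1.89 (adjusted p = 0.0166 and 0.0432), with adjusted p up to 0.0927 and 0.148 when 1 library was left out.

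Of 24 tested genes of xenobiotic metabolism, 5 rose and 1 fell, with a median of 0.31, and without CBLB502 replicate 3 the number that rose was 1. The cytochrome P450 Cyp3a25 had 446, 369 and 330 CPM in 15 Gy + CBLB502, against 128, 87.1 and 93.4 CPM with CBLB502 alone (1.89 ± 0.40, adjusted p = 0.00282). The efflux pump Abcb1a fell by 1.14 ± 0.28 (adjusted p = 0.00856). Cyp3a11 had 5099, 2237 and 1750 CPM in 15 Gy + CBLB502 and 422, 972 and 579 CPM with CBLB502 alone (2.2 ± 0.69, adjusted p = 0.0326), apart but lost whichever of 3 libraries was left out, with adjusted p from 0.0361 to 0.15. Among 15 oxidative stress genes, 2 rose and 2 fell, with a median of -0.01 that was positive on the FPKM scale, and from 1 to 3 rose and from 1 to 3 fell when 1 library was left out. The ligase Gclc, which makes a glutathione precursor, was at -1.48 (adjusted p = 0.0291) and lost its call whichever of 4 libraries was left out, with adjusted p up to 0.13. Nfe2l2, the regulator Nrf2, was at 0.49 (adjusted p = 0.0185, or 0.114 without CBLB502 replicate 3, the lowest of the 6 fits being 0.00782). Catalase, Cat, had 483, 458 and 380 CPM in 15 Gy + CBLB502, against 147, 169 and 176 CPM with CBLB502 alone (1.43 ± 0.19, adjusted p = 7.64e-05). Of 12 distal intestine genes, 4 rose and none fell with a median of 0.04: Aqp8 and Ces1g as above, the vitamin B12 receptor Cubn by 2.24 (adjusted p = 0.00622), and the protease Mep1a by 1.39 (adjusted p = 0.0256, lost whichever of 4 libraries was left out). Of 16 proximal genes, Lct rose and Fabp1 fell, the fatty acid carrier standing at -0.58 (adjusted p = 0.0224, lost whichever of 3 libraries was left out), with a median of -0.29. The score of proximal genes overlapped between the groups, and the part of the sampled segment in these changes was not tested.

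Circadian genes moved in opposite directions. Of 17 tested, 2 rose and 7 fell, with a median of -1.05. The number that fell was 3 without 15 Gy + CBLB502 replicate 1 or CBLB502 replicate 2, 4 without 15 Gy + CBLB502 replicate 2, 5 without replicate 3 of either group and 8 without CBLB502 replicate 1. Arntl, the activator Bmal1, had 50.4, 53.2 and 18.1 CPM in 15 Gy + CBLB502, against 7.61, 2.38 and 7.93 CPM with CBLB502 alone (2.77 ± 0.51, adjusted p = 0.00109). The output repressor Nfil3 had 16.4, 15 and 5.30 CPM in 15 Gy + CBLB502, against 1.46, 1.23 and 3.03 CPM with CBLB502 alone (2.68 ± 0.67, adjusted p = 0.00886). In both, 15 Gy + CBLB502 replicate 3 lay between its own group and the unirradiated one. The output factor Tef had 15.8, 11.5 and 28.2 CPM in 15 Gy + CBLB502, against 68.5, 92.8 and 60.5 CPM with CBLB502 alone (-2.0 ± 0.43, adjusted p = 0.00359). The repressors Nr1d2 and Per3 fell by 1.74 and 2.53 (adjusted p = 0.00655 and 0.00777), and Per2 by 1.21 (adjusted p = 0.0243), which was lost whichever of 4 libraries was left out with adjusted p up to 0.112. The other members that fell were Dbp, Ciart and Bhlhe40, at -3.35, -4.28 and -0.75 (adjusted p between 0.0269 and 0.0419). None of them kept its call without 15 Gy + CBLB502 replicate 1, or without CBLB502 replicate 2. Without CBLB502, 2 of the 17 rose and 4 fell with 15 Gy, with a median of -0.99 (3, 2 and -1.33 without 15 Gy replicate 2), and no member passed the test of the difference. The part of the hour of collection in these genes was not tested.

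Ciart, a repressor of Bmal1, is shown for its E-boxes, the sites bound by the Clock and Bmal1 pair. These are 120 bases that end 23 bases short of its RefSeq start (GRCm38.p6, chr3:95882252-95882371, minus strand), with CACGTG, a palindrome that reads alike on both strands, in capitals.
Ciart: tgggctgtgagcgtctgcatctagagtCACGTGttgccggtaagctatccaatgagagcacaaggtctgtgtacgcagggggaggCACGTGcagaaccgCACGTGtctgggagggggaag
CACGTG was found in the 250 bases before the start of 6.05% of all genes and 8.83% of the tested ones. It was in 2 of the 5 matched clock genes that fell, Ciart and Tef, and in 5 of all 16 matched clock genes.

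Of 15 tested targets of glucocorticoids and metallothioneins, 6 fell and none rose, with a median of -1.05. Klf9, a glucocorticoid-induced repressor, had 12.6, 8.57 and 9.50 CPM in 15 Gy + CBLB502, against 15, 21.5 and 18 CPM with CBLB502 alone (-0.83 ± 0.21, adjusted p = 0.0089). The metallothioneins Mt1 and Mt2 were at -1.82 and -2.66, the phosphatase Dusp1 at -1.29 and Cebpd at -1.37, with adjusted p between 0.0224 and 0.0487, and Lcn2 was the other member called. The list rested on few libraries: without one or another of them, from 0 to 8 members fell, and Klf9 had an adjusted p of 0.0502 without CBLB502 replicate 2, against 0.00573 at the lowest. Of 17 genes of the endoplasmic reticulum and integrated stress responses, 1 rose and 4 fell, with a median of -0.49. Trib3, a pseudokinase induced by Atf4, fell by 1.29 ± 0.26 and the chaperone Dnajb9 by 0.76 ± 0.19 (adjusted p = 0.00215 and 0.0107), while Sesn2, which is also a p53 target, rose by 0.94 ± 0.17 (adjusted p = 0.000935). Ppp1r15a, which resets translation, was at -1.65 (adjusted p = 0.0113, or 0.0537 without CBLB502 replicate 2, against 0.015 at the lowest of the 6 fits), and Asns at -0.85 (adjusted p = 0.0335, lost whichever of 4 libraries was left out).

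Of 17 tested T cell genes, 5 fell and none rose, with a median of -1.2, but from 0 to 10 fell when 1 library was left out. The summed level was 426, 413 and 350 CPM in 15 Gy + CBLB502 and 389, 540 and 1317 CPM with CBLB502 alone. Cd3d, a chain of the T cell receptor complex, had 2.97, 2.15 and 1.98 CPM in 15 Gy + CBLB502, against 5.09, 4.93 and 14.3 CPM with CBLB502 alone (-1.77 ± 0.45, adjusted p = 0.00972, or 0.0985 without CBLB502 replicate 3, with 0.00678 the lowest of the 6 fits). Lat, Cd3e, Cd160 and Lck were at -1.53, -1.25, -1.32 and -1.4 (adjusted p between 0.0125 and 0.0449). Lat lost its call whichever of 3 libraries was left out, and each of the others whichever of 5. Without CBLB502 replicate 3 no member fell and the median was -0.47, without any 15 Gy + CBLB502 library or CBLB502 replicate 2 the number that fell was 1 or 2, and without CBLB502 replicate 1 it was 10. Of 12 tested myeloid genes, 3 rose and none fell. Their median was 0.93, or 0.07 without 15 Gy + CBLB502 replicate 3. The endotoxin coreceptor Cd14 had 5.08, 5.20 and 5.91 CPM in 15 Gy + CBLB502, against 3.16, 3.10 and 3.13 CPM with CBLB502 alone (0.78 ± 0.18, adjusted p = 0.00474). Cd68 rose by 1.94 (adjusted p = 0.00697) at levels near 1 CPM, and Lyz2 was at 1.78 (adjusted p = 0.0384, lost whichever of 4 libraries was left out). Of 8 genes of B and plasma cells none passed, and the median of -0.06 was positive on the FPKM scale. Of 9 MHC class II genes, the protease Ctss rose by 0.55 ± 0.14 (adjusted p = 0.0114, up to 0.0581 without 1 library), with a median of 0.37. Of 15 MHC class I genes, Tap2, Tapbp, Psmb8 and H2-T23 rose, by 0.43 to 0.81 (adjusted p between 0.0128 and 0.0479), with a median of 0.36, and without CBLB502 replicate 3 none did. Psmb8 and H2-T23 lost their calls whichever of the 6 libraries was left out, and reads of H2 genes can be split between near-identical copies. Of 31 interferon-stimulated genes, Ifi27l2b rose by 0.65 (adjusted p = 0.0311, lost whichever of 4 libraries was left out), with a median of 0.28.

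In the secretory and stromal lists, at most 4 genes a list were called. Of 14 enteroendocrine genes, 4 fell and none rose, with a median of -0.74. Only 1 fell without CBLB502 replicate 3, and likewise without 15 Gy + CBLB502 replicate 2. Cpe, the carboxypeptidase that processes hormones, had 10.5, 12.9 and 10.2 CPM in 15 Gy + CBLB502, against 23.7, 31 and 24.6 CPM with CBLB502 alone (-1.24 ± 0.23, adjusted p = 0.00101). The hormone Sct was at -0.94, the factor Neurod1 at -0.89 and the serotonin enzyme Tph1 at -0.90 (adjusted p between 0.0198 and 0.034). Sct lost its call whichever of 4 libraries was left out, and Neurod1 and Tph1 whichever of 3. CBLB502 replicate 3 was among these for each gene, and the libraries of Tph1 overlapped between the groups. Of 15 Paneth cell genes, Mmp7, which activates defensins, fell by 3.24 ± 0.81 and the lipase Pnliprp2 by 2.45 ± 0.34 (adjusted p = 0.0089 and 0.000103). The list median was 0.82, or -0.12 without 15 Gy + CBLB502 replicate 3. Mmp7 had 0.700, 0.850 and 3.07 CPM in 15 Gy + CBLB502, against 12, 19.7 and 11.9 CPM with CBLB502 alone. Of 16 goblet cell genes, Agr2, which folds mucin, had 55.4, 79.8 and 80.3 CPM in 15 Gy + CBLB502, against 281, 200 and 185 CPM with CBLB502 alone (-1.63 ± 0.37, adjusted p = 0.00525), with a median of -0.46. No gene passed among 8 tuft cell, 10 smooth muscle, 7 liver and blood, 13 mitochondrially encoded and 23 ribosomal protein genes, whose medians were -0.57, 0.86, -2.47, -0.13 and 0.06, the mitochondrial median being positive on the FPKM scale. The liver and blood genes summed to 6.01, 4.17 and 3.73 CPM in 15 Gy + CBLB502 and 6.06, 4.54 and 60.0 CPM with CBLB502 alone, so that CBLB502 replicate 3 was high and the other 5 libraries alike. Without that library the medians of the tuft cell, liver and blood, and mitochondrially encoded genes were 0.03, -0.17 and 0.64. Of 3 endothelial genes, the lymphatic receptor Lyve1 fell, with 2.26, 2.61 and 2.27 CPM in 15 Gy + CBLB502 against 7.69, 11.5 and 7.14 CPM with CBLB502 alone (-1.88 ± 0.26, adjusted p = 0.00011). Tie1 was at -3.75 (adjusted p = 0.0192, lost whichever of 3 libraries was left out, up to 0.0735). In 23 exocrine pancreas genes and 6 of fibroblasts, Rnase1 was at 2.26 and Fbln1 at 0.48 (adjusted p = 0.0492 and 0.0231), with medians of 1.11 and 0.51, and 7 pancreas genes had no count in any of the 6 libraries. Rnase1 lost its call whichever of the 6 libraries was left out and Fbln1 whichever of 4, with adjusted p up to 0.153 and 0.125.

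The same dose without CBLB502, 15 Gy at 24 h over control, called 549 of the 11118 genes (4.94%), 292 higher (2.63%) and 257 lower (2.31%). The comparisons share no library. Leaving out any 15 Gy library gave 305 to 365 genes, leaving out control replicate 1 or 2 gave 216 and 285, and leaving out control replicate 3 gave 629. Of the genes called, 338 were called in both, which is 17.7% of the list with CBLB502 and 61.6% of the list without it, and 336 of these moved in the same direction, 175 higher and 161 lower. Of the 1908 genes called with CBLB502, 1731 (90.7%) had the same sign without it, against 69.6% of all genes tested. Without 15 Gy replicate 2, 184 were called in both, or 9.64% of the list with CBLB502 and 60.3% of the 305 without it, with 182 in the same direction, and the shares with the same sign were 86.5% and 67.1%. Ccng1 rose by 2.02 with CBLB502 and 2.46 without, Aen by 2.69 and 2.46, and Arntl by 2.77 and 2.89, with differences between the effects of -0.44, 0.24 and -0.12 (adjusted p = 0.525, 0.937 and 0.992, or 0.481, 0.953 and 0.909 without 15 Gy replicate 2). Of the 16 defence genes, none passed without CBLB502, with a median of 0.05 against -1.88 with it, and Fut2 was the member that passed the test of the difference. Without 15 Gy replicate 2 that median was -0.12, and 3 members passed, Fut2, Reg3b and Reg3g. Of the 31 interferon-stimulated genes, none rose and 5 fell without CBLB502, with a median of -1.06 against 0.28 with it, and no member passed the test of the difference. Without 15 Gy replicate 2, 2 of them fell, with a median of -1.05, and again none passed that test.

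The difference between the 15 Gy effects, tested itself as an interaction, passed for 25 genes (0.225% of those tested), 17 of them (0.153%) with the more positive effect under CBLB502 and 8 (0.072%) with the more negative one, and 1045 genes had an unadjusted p under 0.05. Of the 25, 24 were called with CBLB502 and 3 without it. Fut2 showed the smallest p: beside the values given above it had 3.41, 1.59 and 1.74 CPM in 15 Gy and 2.33, 1.87 and 1.46 CPM in control, so that the effect was -5.23 with CBLB502 and 0.25 without, and the difference -5.48 ± 0.66 (adjusted p = 0.000549). The 3 CBLB502-alone libraries were high and the other 9 low. Agmo, which cleaves ether lipids, had 189, 209 and 224 CPM in 15 Gy + CBLB502, 78, 84.2 and 100 CPM with CBLB502 alone, 205, 201 and 196 CPM in 15 Gy and 213, 236 and 189 CPM in control, and its difference was 1.33 ± 0.21 (adjusted p = 0.00966). Here the CBLB502-alone libraries were low and the other 9 alike. Over the 25 genes, the CBLB502-alone libraries lay below all other 9 in 16 genes, above them in 6, and among them in 3.

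Reg3b and Reg3g fell by 3.48 and 3.46 with CBLB502 and stood at -0.73 and -0.65 without it, and the difference missed the threshold (adjusted p = 0.0752 and 0.0784), but passed it without 15 Gy replicate 2 (0.0256 and 0.0172). In 15 Gy without CBLB502, Duox2 had 153, 5.23 and 101 CPM, and replicate 2 lay near the 15 Gy + CBLB502 libraries and far from its own group, with a difference of -4.83 between the effects (adjusted p = 0.199, or 0.0573 without that replicate). Without 15 Gy replicate 2, 48 genes passed the interaction test, and without control replicate 3 also 48. Without 15 Gy + CBLB502 replicate 2 or 3, 12 and 7 passed, without CBLB502 replicate 1 or 2, 16 and 15, without 15 Gy replicate 1 or 3, 8 and 9, and without control replicate 1 or 2, 11 and 8. Fut2, Trub2, Cpe, Agmo and Lyve1 kept their call whichever of the 12 libraries was left out, the highest adjusted p being 0.00532 for Fut2 and 0.0489 for Lyve1. With the compared groups alone in the fit 4 genes passed, so the spread estimated over all 9 groups bears on this count. With the proximal score as a covariate 60 genes passed.

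**Figure D5:**
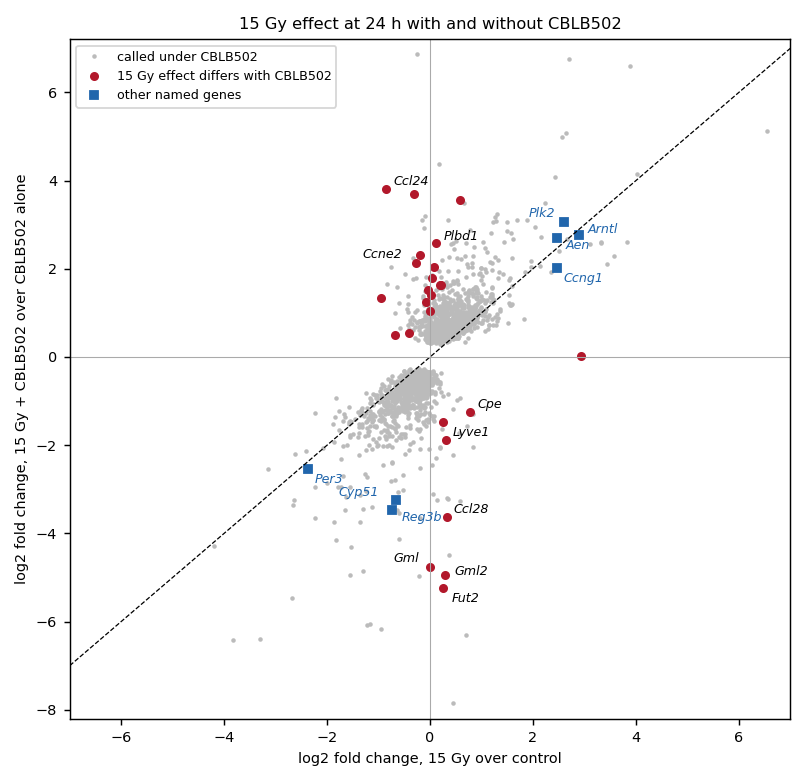
Log2 fold change of 15 Gy with CBLB502 (over CBLB502 alone) against that without it (over control). Grey points are the 1908 genes called with CBLB502, and other tested genes are drawn only where red or blue. The dashed line marks equal effects, red points are the 25 genes of the interaction test, and blue squares are other named genes. Of the called genes, 9 lie outside the axes. Ccng1 lies near the line, while Fut2 (-5.23 and 0.25) and Gml2 (-4.95 and 0.29) lie far below it.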

How the data were processed

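The deposited table holds 55401 genes, 23888 of them with no count in any library, for 27 libraries of total intestinal RNA extracted with Trizol. It gives whole-number read counts per gene and FPKM values (fragments scaled by gene length and library total) that the authors computed, per the file headers. Per the submitters' processing notes, Bowtie 0.12.2, HISAT2 2.0 and StringTie 1.3.0 were used, with no role given, and mm8 is named as the build. The positions of 51957 of 55141 gene IDs (94.2%) equal those of GENCODE vM21 on GRCm38, which is the build printed here. Whether counting used strand, and how it treated reads with several matches, is not given in the sources used here.

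Counts were tested with edgeR 4.0.16 (R 4.3.3): TMM scaling, all 27 libraries and 9 groups in 1 quasi-likelihood fit with no covariate, the 11118 genes that reached an FPKM of 1 in 3 or more libraries, and Benjamini-Hochberg adjustment over all of them. SE is the log2 fold change divided by the square root of F. The difference between the 15 Gy effects was a contrast in the same fit. CPM are counts scaled by a library's total. Alternatives were other scaling, filters, designs and covariates, DESeq2 1.42.0, limma 3.58.1 on log2(FPKM + 1) and log2(FPKM + 0.1), and leaving out each library. The 15 Gy comparisons with and without CBLB502, but not their difference, were also run on simulated counts, with outcomes not reported here. Promoter sequences are RefSeq's on GRCm38.p6, matched by symbol.

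The comparison, its gene lists and tests were chosen with earlier results of these data known. Genes were named by rule: the 15 steepest rises and 15 steepest falls with a call, a mean of at least 5 FPKM in the higher group and no overlap of libraries, the 10 smallest adjusted p of the interaction, the 6 smallest adjusted p of each list, and a set of well known genes. Predicted genes and pseudogenes were left out of the first set. Other members of the defence, sterol, clock and p53 lists, and Trub2, were named after their values were seen. Some genes that these rules or lists hold are not reported here. Intervals and limits from 0 counts cover counting error only.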

Additional observations from a re-analysis of the deposited data

Results flagged for a closer look

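The genes below are given because the effect of 15 Gy under CBLB502 differed from its effect without CBLB502, by the interaction test (edgeR's quasi-likelihood, adjusted p under 0.05 over 11118 genes). Each value is the difference between the effects on the log2 scale. Falls seen with CBLB502 and not without it gave negative differences: Fut2 -5.48, the Ly6-family genes Gml2 -5.24 and Gml -4.76, the chemokine Ccl28 -3.94, the lymphatic receptor Lyve1 -2.18, and the hormone-processing Cpe -2.02. In each of these 6 the CBLB502-alone libraries averaged highest of the 4 groups. In Ccl28, the 15 Gy libraries without CBLB502 ranged from 3.48 to 22.9 CPM, and replicate 2 was the low one.

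Rises seen with CBLB502 and not without it gave positive differences. These were the eosinophil chemokine Ccl24 with 4.65, the cyclin Ccne2 with 2.52, the phospholipase-like Plbd1 with 2.46, the glucose transporter relative Slc5a4b with 2.4, the nucleoside transporter Slc28a1 with 1.95, the elongation factor Tcea3 with 1.43, the sterol exporter Abcg5 with 1.4, the ether lipid enzyme Agmo with 1.33, the MHC class I molecule H2-T23 with 1.17 and the protease Ctss with 0.97. In H2-T23 the effect was 0.49 with CBLB502 and -0.68 without it, and both passed their own tests. The calls of Fut2, Cpe, Agmo and Lyve1 held whichever of the 12 libraries was left out, while the others lost it in some of those 12 fits. Gml2 kept its call in 10, Slc28a1 in 9, Ccl24 in 8, Slc5a4b in 7, Tcea3 in 5, Plbd1 and Abcg5 in 4, Ccl28, H2-T23 and Ctss in 3, Gml in 2 and Ccne2 in 1, with adjusted p up to 0.151.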

How the results depend on the processing

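None of the 17 alternatives reversed the direction of any of the 1908 genes called with CBLB502, and 82 of the 145 named genes called kept their call in all of them. The 1908 genes of 15 Gy under CBLB502 became 1254 with no filter on low values, where 31513 genes shared the adjustment, and 900 with the compared groups alone in the fit, which leaves fewer libraries to estimate the spread. Median-ratio scaling gave 1879 (47.4% higher), DESeq2 2406, and limma on FPKM 1660 or, with a pseudocount of 0.1, 1733 (79.3% higher, median of all genes 0.20), the cause of that split not being tested. Leaving out 1 library gave 1218 to 1756. The 25 interaction genes became 4 with the compared groups alone, 128 with DESeq2 and 60 with the proximal score as a covariate, and 7 to 48 without 1 library. The 549 genes of 15 Gy without CBLB502 became 262 with no filter, 12 with the compared groups alone, 292 without the libraries of 6 Gy at 24 h, 1071 with DESeq2, 241 and 306 with limma and pseudocounts of 1 and 0.1, 824 with the mitochondrial share as a covariate, and 216 to 629 without 1 library. The cause of those moves was not tested beyond the number of genes or libraries each fit holds. With a replicate block the counts were 1845, 24 and 511. Same-numbered libraries of 15 Gy + CBLB502 and CBLB502 alone deviated together with correlations of -0.04, -0.02 and 0.08, so the numbers were not taken as pairs, and not every library correlated best with its own number. Tlr5, Lgr5 and other genes under the filter were too low in level to be tested.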

Other observations

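Of the 25 genes of the interaction test, several belong to no list described above and were picked here after their values were seen. Trub2, a mitochondrial pseudouridine synthase, had 34, 32.7 and 26 CPM in 15 Gy + CBLB502 and 8.81, 8.10 and 9.80 CPM with CBLB502 alone, and 21.4, 27.8 and 24 CPM in 15 Gy and 21.8, 23.9 and 25.9 CPM in control. Pros1, the anticoagulant protein S, had 8.41, 10.9 and 14.1 CPM in 15 Gy + CBLB502 and 0.647, 0.989 and 1.2 CPM with CBLB502 alone, and 6.74, 12.6 and 10.9 CPM in 15 Gy and 4.24, 6.17 and 9.68 CPM in control. In both genes the CBLB502-alone libraries were the lowest of the 12. The amino acid transporter Slc38a1 went the other way, with 16.2, 13.7 and 16.2 CPM in 15 Gy + CBLB502 and 34.3, 66.2 and 28.1 CPM with CBLB502 alone, against 9.41 to 16.1 CPM in the 6 libraries of 15 Gy and control. Sh3bp5 was the 1 gene of the 25 not called with CBLB502: it had 4.11, 6.02 and 3.53 CPM in 15 Gy + CBLB502 and 4.83, 2.3 and 6.33 CPM with CBLB502 alone, and 7.55, 4.45 and 4.28 CPM in 15 Gy and 0.494, 0.857 and 0.760 CPM in control.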
